A study of Arabidopsis thaliana with 2 samples.

Results

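Among the Arabidopsis thaliana genes with an LHY peak in seedlings, 106 of 1602 (6.62%) peak in expression in the early subjective night, 12 to 17 h after subjective dawn in constant light. They were chosen by that phase alone, which the authors took from a database and which was not measured in this series. They make up 17.4% of the 610 bound genes that have a phase. LHY binding was measured by chromatin immunoprecipitation and sequencing (ChIP-seq) of Col-0 seedlings, 2 weeks old, harvested 2 h after dawn, with an antiserum raised to LHY. Chromatin from 4 immunoprecipitations was pooled into 1 library and set against 1 library of input DNA from the same ecotype and stage. No plants lacking LHY were analysed here, and no replicate library gives an error for any peak. Seedlings hold many cell types, and a peak value averages over them.

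LHY is a MYB-type DNA-binding protein of the plant circadian clock that accumulates around dawn and, with its homologue CCA1, is known mainly as a repressor. Genes expressed in the evening are its best-known targets, and many of them carry a sequence called the evening element in their promoters. Proteins made in the evening, among them those of the evening complex, in turn hold down other clock genes at night. Genes that peak after dusk include regulators, but also enzymes of respiration, nitrogen use and stress defence.

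The authors listed the peaks of each gene with a −log10 q from peak calling and its distance from the transcription start site (TSS), negative when upstream of it and positive when downstream. A second header line describes the same values as −log10 of the p-value, so they serve here only to describe and rank peaks. The number of sequenced reads is unknown. The 106 genes held 114 pairs of a gene and a peak, with 1 peak at 98 genes and 2 at 8. All 106 were protein-coding in the reference annotation, as were 1477 of the 1602 bound genes. They were spread over the 5 chromosomes, from 20 on chromosomes 2 and 4 to 23 on chromosome 3. Chromosome 1 held 20.8% of them and 25.3% of all bound genes, and chromosome 4 held 18.9% and 15.4%. No test was made between phase windows, since every value comes from 1 library. Intervals below are exact 95% intervals that cover the counting of genes and nothing else.

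In strength of binding the early-night genes resembled the list as a whole more than the genes of the late day. Their median also lay below that of the other bound genes with a phase. The median −log10 q of the strongest peak was 10.3 (95% order-statistic interval 9.22 to 11.98), and it was also 10.3 over all 1602 bound genes. It was 18.1 for the 90 genes of 9 to 11 h, 14.2 for the 187 genes of 6 to 8 h, 11.2 for the 137 genes of 0 to 5 h and 10.3 for the 90 genes of 18 to 23 h. The equal medians of 10.3 are the same recurring value, 10.3093, which occurs 50 times in the list, so their exact equality means little. Bound genes without a phase had a median of 9.39. A strong peak is taken here as a value at or above the upper quartile of all bound genes, 18.3. Such a peak lay at 32 early-night genes (30.2%, interval 21.7 to 39.9), against 25% of all bound genes and 34.6% of bound genes with a phase, so the share lay between these backgrounds. In the 9 to 11 h window 50% of genes passed the same threshold.

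**Figure D1:**
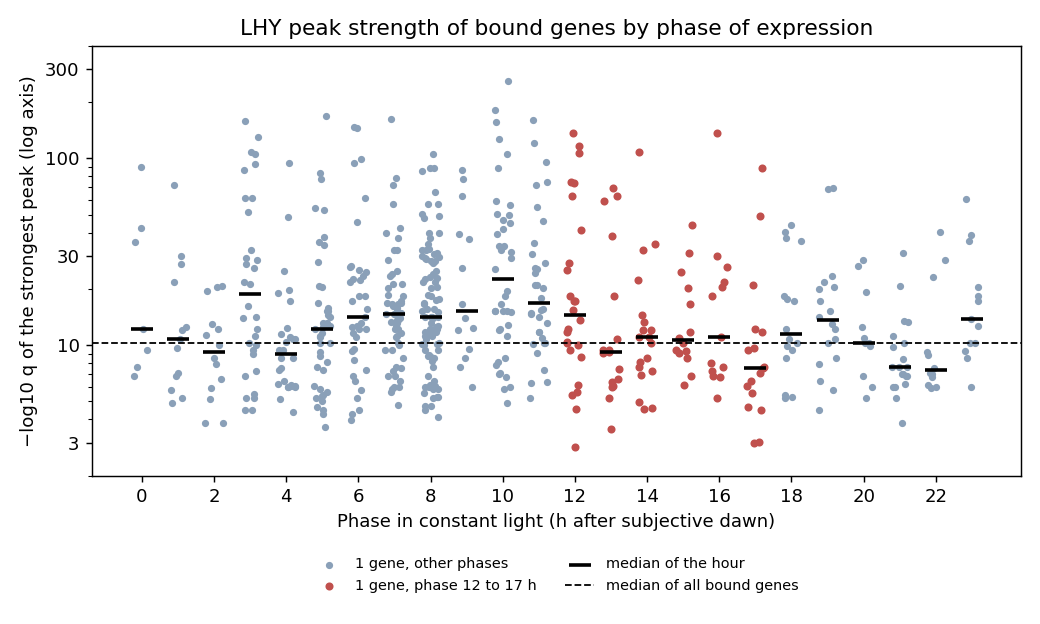
Strongest −log10 q of each bound gene with a phase (vertical, log axis) against its phase in hours after subjective dawn (horizontal; points are spread sideways within an hour), with a black bar for the median of each hour. Medians are 22.6 at 10 h, 14.6 at 12 h, 9.22 at 13 h, 11.1 at 16 h, 7.55 at 17 h and 11.5 at 18 h, without a steady fall. The red points of 12 to 17 h span 2.84 to 137.

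By median −log10 q, the genes at 12 h stood nearer to the late-day genes than the rest did. The 26 genes of this hour had a median of 14.6 (interval 9.96 to 27.7), with 10 strong peaks (38.5%, interval 20.2 to 59.4). The 80 genes of 13 to 17 h had a median of 9.39 (interval 7.99 to 11.1) and 22 strong peaks (27.5%). The strong-peak share did not set 12 h apart, since at 16 h it was 6 of 13 genes (46.2%). Its backgrounds were 25% of all bound genes and 34.6% of those with a phase. Just outside the window, the 34 genes of 11 h had a median of 16.7 and the 16 genes of 18 h one of 11.5. The hours from 13 to 17 had medians of 9.22, 10.99, 10.6, 11.1 and 7.55. The intervals of the 12 h and the 13 to 17 h genes overlapped, and dividing the window at 12 h was a choice made with the values known.

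Strong peaks at early-night genes reached high in the list without entering its top 10. Among the 50 bound genes with the highest −log10 q, 6 had an early-night phase, of 37 with any phase, and among the first 100 there were 12 of 66. This was 12% of each set, against 6.62% of all bound genes. Among genes with a phase only, both shares were close to the 17.4% that early-night genes make up of them. The 6 among the first 50 were SMZ, SCPL49, GPX6, CcdA, ELF4 and AOX1A. They belong to flowering control, protein turnover, redox defence, photosynthetic assembly, the clock and respiration.

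Regulators of transcription and chromatin made up 18 of the 106 genes, with a median −log10 q of 10.3 and strong peaks at 7 (38.9%, interval 17.3 to 64.3). The background shares were 25% of all bound genes and 34.6% of those with a phase. In this and every other role class, the interval of the strong-peak share contained both backgrounds. The classes hold only 6 to 25 genes and their intervals are wide, so this does not show that the classes were alike. SMZ (AT3G54990), an AP2-type repressor of flowering with a phase of 16 h, had the highest value of any early-night gene, 137 at −1664 bp, and a weaker peak of 21.7 at −2584 bp. It ranked 11th among all bound genes.

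The clock was represented by 3 genes from the lists used here. ELF4 (AT2G40080), a small protein of the evening complex, had 107 at −76 bp. ELF3 (AT2G25930), the scaffold of the same complex, had 62.7 at −19 bp. Both peaked in expression at 12 h, and both were bound close to the TSS. Of the 8 genes in the list of evening complex members and their homologues, 3 were bound. The third was the LUX homologue BOA, with 127 at −45 bp and an earlier phase of 10 h, while no peak was listed under LUX or the ELF4 homologues EFL1 to EFL4. The locus next to LUX in the annotation, AT3G46630 (phase 6 h), had 147.6 at −267 bp. Each peak was paired with the closest gene facing away. Some peaks were listed under both genes of an adjacent pair, but this one was not listed under LUX. The listing does not settle whether LUX is bound. Of 7 other evening clock genes, 5 were bound (TOC1, GI, FKF1, PRR3 and PRR5) and 0 had an early-night phase, their phases running from 7 to 10 h.

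RVE2 (AT5G37260), a MYB gene of the same family as LHY, had 43.9 at −164 bp and 9.39 at −2637 bp, with a phase of 15 h. It was the only early-night gene among the 5 bound members of the 10-gene LHY, CCA1 and REVEILLE list. The other bound members peak before or after dawn, with RVE7 at 3 h, LHY at 22 h and both CCA1 and RVE1 at 23 h.

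Other regulators with strong peaks were BBX13 (AT1G28050), a B-box zinc finger gene with a CCT domain (73.9 at −152 bp, phase 12 h), and GTE7 (AT5G65630), a bromodomain gene (phase 14 h). GTE7 had 34.7 at −105 bp and 20.3 at −1601 bp. MYB106 (AT3G01140), which acts in trichome branching, had 24.8 at −1314 bp. Chromatin was represented further by CHR38, also known as CLASSY1, of RNA-directed DNA methylation, with 13.2 at −728 bp. The weaker peaks included those at the stomatal lineage gene FLP (10.3 at −4090 bp), the CCT-motif gene AT5G14370 (10.3 at −613 bp), NF-YA7 (9.39 at −189 bp) and a Dof-type zinc finger gene, AT2G28810 (8.50 at −1326 bp).

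The bHLH gene AIB, which is linked to ABA and jasmonate, had 6.11 at +206 bp, and the stress-related gene NAC032 had 6.05 at −137 bp. TPL, a corepressor used by auxin and jasmonate repressors, had 5.54 at −779 bp. PAP2 (AT4G29080), also known as IAA27, had 3.55 at −862 bp. The remaining regulators were the C2H2 zinc finger gene AT3G49930 (7.64 at −1092 bp) and the AT-hook gene AT5G54930 (6.001 at −91 bp).

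Enzymes of metabolism formed the largest class, 25 genes, with a median of 9.45 and strong peaks at 7 (28%). Of these 25, 21 had their strongest peak in the promoter window, which here starts 1000 bp upstream and ends 200 bp past the TSS (84%, interval 63.9 to 95.5; 68.3% of all bound genes and 74.1% of those with a phase did). The class had its highest values at CcdA, AOX1A and PDC2. CcdA (AT5G54290), a thylakoid protein that carries reducing equivalents and is needed to assemble a photosynthetic cytochrome complex, had 109 at −566 bp (phase 14 h). AOX1A (AT3G22370), the alternative oxidase that bypasses part of the mitochondrial respiratory chain, had 88.4 at −256 bp (phase 17 h). PDC2 (AT5G54960), a pyruvate decarboxylase of ethanol fermentation, had 69.5 at −99 bp (phase 13 h).

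THI1 (AT5G54770), which makes the thiazole part of thiamine, had 38.4 at −622 bp. Thiamine pyrophosphate is the cofactor of pyruvate decarboxylase and of transketolase, and the transketolase gene AT3G60750 (TKL1), of the Calvin cycle, was also on the list with 9.45 at −155 bp. These 3 genes, THI1, PDC2 and TKL1, had a phase of 13 h, but they were picked by function with the values known. Another bound thiamine gene, THIC (AT2G29630), had an earlier phase of 11 h, with 30.8 at −119 bp. A shared hour of thiamine-related genes was not tested.

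Amino acid and nitrogen metabolism had mostly moderate peaks. MTO2, threonine synthase, had 18.3 at −133 bp and was the weakest of the 32 genes with a strong peak. MTO3, an S-adenosylmethionine synthase, had 7.27 at −20 bp, and PSAT, of serine synthesis, had 9.25 at +78 bp. NIR1, which reduces nitrite in the chloroplast, had 11.1 at −1888 bp. In photosynthesis and carbon metabolism, the glycerate kinase gene AT1G80380, of photorespiration, had 4.58 at −62 bp, and PGM, the plastid phosphoglucomutase of starch synthesis, had 5.59 at −396 bp. CRR6, which assembles the chloroplast NADH dehydrogenase-like complex, had 7.43 at −448 bp, and the ferredoxin gene FdC2 had 6.56 at −115 bp. The desaturase gene FAD8, which makes trienoic fatty acids in plastids, had 7.63 at +152 bp. None of these 5 genes had a strong peak.

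Glycosyltransferases and cytochrome P450 genes completed the class, all below the strong-peak threshold. CYP706A6 had 17.3 at −874 bp and CYP81D5 had 4.64 at −154 bp. DOGT1, which glucosylates brassinosteroids, had 7.99 at −245 bp, HYR1 had 6.32 at −274 bp, and UGT84A3, which glucosylates sinapate, had 5.43 at +228 bp. The other metabolic genes were AT4G29700, annotated as an alkaline-phosphatase-like protein (31.1 at −685 bp), the methyltransferase genes AT1G33170 (20.6) and AT3G23300 (10.9), AT4G02940 (11.1), AT5G48480 (10.3) and AAE17 (4.54).

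Hormone and stress genes numbered 10, with a median of 9.25 and strong peaks at 3. GPX6 (AT4G11600), a glutathione peroxidase that removes lipid peroxides, had 116 at +42 bp (phase 12 h). GER3 (AT5G20630), a germin-like protein of the cell wall, had 74.5 at −812 bp (phase 12 h). FER3 (AT3G56090), a plastid ferritin that stores iron, had 22.3 at −59 bp (phase 14 h). Metal-binding proteins were present at lower strength, with 15.4 at −285 bp for the metallothionein gene MT2A and 9.39 at −1570 bp for FP3. SFR2, a galactolipid-remodelling enzyme needed to survive freezing, had 7.55 at −518 bp. The peroxidase gene AT2G22420 (5.23), the drought-responsive gene AT1G02750 (4.56) and AT1G44760 (4.50), annotated to stress response, had the weakest peaks of the class.

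**Figure D2:**
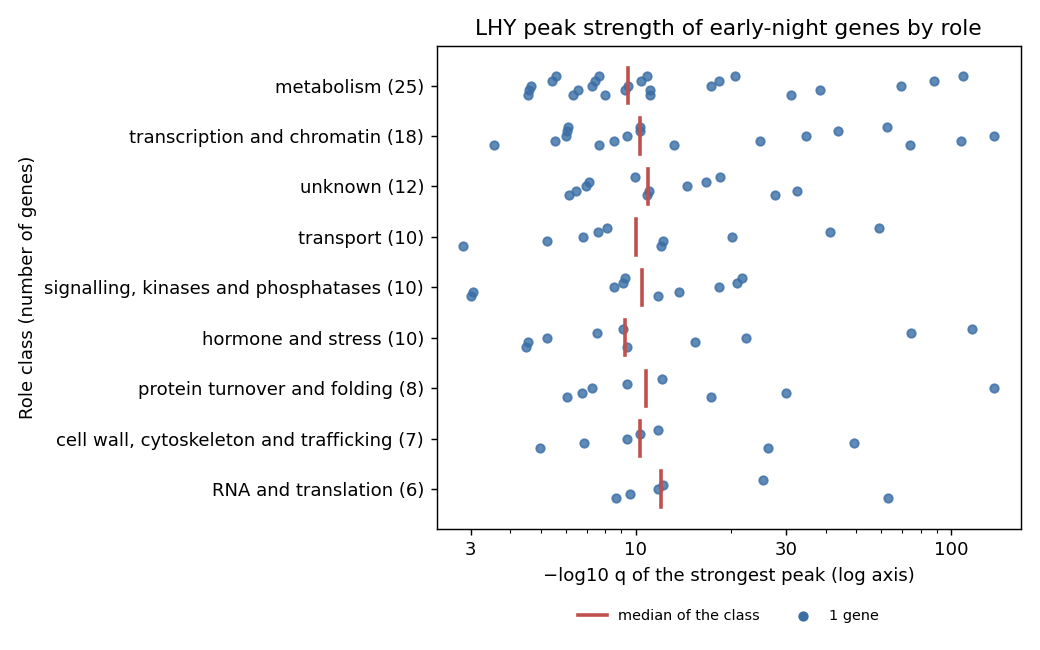
Strongest −log10 q of each early-night gene (horizontal, log axis) by role class (vertical), with a red bar for the median of the class. Class medians lie between 9.25 and 11.999, while the values within a class spread from under 5 to over 100 for metabolism, and the highest gene is SMZ with 137.

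Of 10 transport genes, 2 had the strongest peak in the promoter window (20%, interval 2.52 to 55.6) and 4 had it more than 3000 bp upstream; for all 106 genes these counts were 75 (70.8%) and 8 (7.55%), and 8.93% of all bound genes had the strongest peak that far upstream. These classes were drawn up with the values known, so no test was made of this difference. The strong peaks were at AVP1 (AT1G15690), the proton-pumping pyrophosphatase of the vacuole (58.9 at −2250 bp, phase 13 h), at ACA8 and at ANTR2. ACA8 (AT5G57110), a calcium pump of the plasma membrane, had 41.2 at +469 bp, the farthest downstream of the 106 genes, and 11.3 at −4668 bp. ANTR2, an anion transporter of the chloroplast envelope, had 20.2 at −63 bp.

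Nitrate and sugar transport were represented by weaker, upstream peaks. NRT1.7, which moves nitrate out of old leaves, had 11.98 at −1758 bp. GTR1, a glucosinolate transporter of the same family, had 7.60 at −3863 bp, and PUP1, a purine permease, had 12.2 at −3175 bp. SWEET12, a sucrose exporter of the phloem, had the lowest value of the 106 genes, 2.84 at −2824 bp. HA1, a proton pump of the plasma membrane, had 5.23 at −5422 bp, and the MATE efflux gene AT5G17700 had 6.80 at −5151 bp. TOC132, a receptor for protein import into plastids, had 8.08 at +17 bp.

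Signalling genes numbered 10, with a median of 10.5 and strong peaks at 3. LGO (AT3G10525), an inhibitor of cyclin-dependent kinases that promotes endoreduplication, had 21.7 at −1578 bp, and the kinase genes AT3G58690 and ACDO1, the latter of plastid plastoglobules, had 20.9 at −89 bp and 18.4 at −1760 bp. GUN1, which takes part in plastid-to-nucleus signalling, had 13.7 at −486 bp, and the cyclin gene CYCP2;1 had 11.7 at −136 bp. The receptor kinase gene RPK1, of ABA signalling, had 9.22 at −471 bp, and the calcium-binding gene AT2G44310 had 8.50 at −301 bp. The receptor-like kinase gene CRK18 (3.04 at −219 bp) and CLE44 (2.99 at −175 bp), the gene of a vascular signalling peptide, were among the weakest of the 106.

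Protein turnover and folding accounted for 8 genes with strong peaks at 2. SCPL49 (AT3G10410), a vacuolar serine carboxypeptidase-like protein, had 136 at −25 bp (phase 12 h), almost equal to SMZ and close to the TSS. The F-box gene AT2G16365 had 29.9 at −389 bp. The RING-type genes were AT1G49230, also known as ATL78 (17.3 at −358 bp and 4.50 at −919 bp), BRG2 (12.1 at −2570 bp) and RHA2B (7.25 at −235 bp), which acts in ABA responses. ATG8D, which marks autophagosomes, had 9.39 at +39 bp. The chloroplast cyclophilin gene ROC4 had 6.75 at −113 bp and the DnaJ-type gene AT5G17840 had 6.05 at −163 bp.

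RNA and translation genes numbered 6, with strong peaks at AT4G37380, described further on, and emb2746 (25.3 at +74 bp). The ribosomal protein gene RPL3B had 12.2 at +86 bp, the helicase gene AT2G42520 had 11.8 at +22 bp, the translation factor gene AT1G18070 had 9.60 at −1098 bp and the RNA-binding gene AT2G28540 had 8.67 at −1772 bp. Cell wall and trafficking genes numbered 7, with strong peaks at ENODL2 (AT4G27520), an early nodulin-like protein (49.0 at −114 bp), and AT1G73390, with a BRO1-like endosomal domain (26.3 at −1812 bp). The other 5 were AT3G15720, a pectin lyase-like gene (11.8), the pectin-synthesis gene GAUT1 (10.3), QUL2 (9.39), the trafficking GTPase gene RABA1d (6.85) and the pectin methylesterase gene PME5 (4.98).

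Genes of unknown function numbered 12, of which 11 had the strongest peak in the promoter window (91.7%, interval 61.5 to 99.8). The interval contains the 68.3% of all bound genes and the 74.1% of those with a phase. Strong peaks lay at AT3G23170 (32.3 at +107 bp), AT2G25730 (27.7 at −7 bp) and OEP6 (18.4 at −101 bp), which encodes a protein of the outer plastid envelope. The other 9 ranged from 6.14 at AT2G42310 to 16.6 at AT5G58570.

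By position, the strongest peak of an early-night gene lay at a median of −265 bp (interval −518 to −155), against −408.5 bp over all bound genes. The median was −233.5 bp over bound genes with a phase and −220.5 bp over those of them outside 12 to 17 h. The strongest peak was in the promoter window at 75 early-night genes (70.8%, interval 61.1 to 79.2). This compares with 68.3% of all bound genes and 74.1% of bound genes with a phase, so the share is close to both backgrounds. The corresponding share was 88.9% in the late-day window of 9 to 11 h and 65.6% from 18 to 23 h. The authors paired each peak with the nearest gene that faces away from it, which favours upstream positions in every window. Some peaks were listed under both genes of an adjacent pair. Within the early-night genes, the medians by position were close. The 75 genes with the peak in the window had a median −log10 q of 10.3 and the 31 others one of 9.60.

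**Figure D3:**
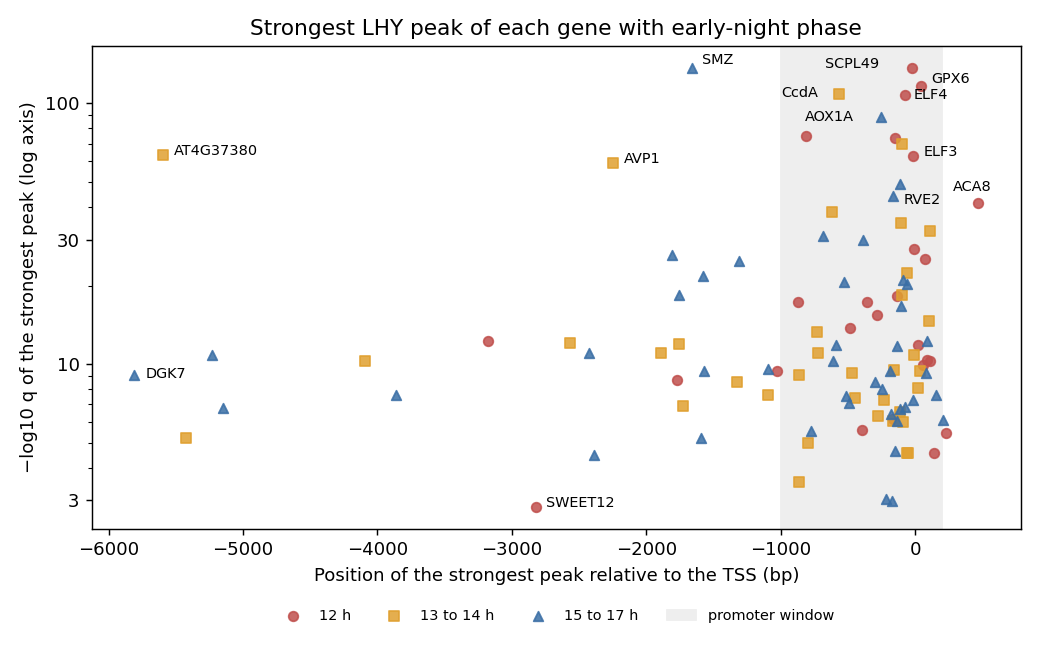
Position of the strongest peak in bp from the TSS (horizontal) against its −log10 q (vertical, log axis) for the 106 early-night genes, with colours for 12 h, 13 to 14 h and 15 to 17 h and grey shading for the promoter window. SCPL49, GPX6, ELF4 and ELF3 lie within 100 bp of the TSS, whereas SMZ, AVP1 and AT4G37380 have values over 50 between −1664 and −5592 bp.

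At or downstream of the TSS lay the strongest peak of 17 early-night genes (16.04%, interval 9.63 to 24.4), against 11.6% of all bound genes and 15.4% of bound genes with a phase. These were not evenly placed among the hours. At 12 h, 9 of 26 genes had such a peak (34.6%, interval 17.2 to 55.7): GPX6, ACA8, emb2746, AT2G42520, AT5G48480, GAUT1, AT1G19370, UGT84A3 and AT1G02750. From 13 to 17 h, 8 of 80 did (10%, interval 4.42 to 18.8). In the hours before, the share was 28.6% at 9 h, 23.8% at 10 h and 17.6% at 11 h, and it was 30.8% at 23 h. The median position was −104.5 bp at 12 h and −418.5 bp from 13 to 17 h. This division by hour was noticed in the data and was not tested.

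**Figure D4:**
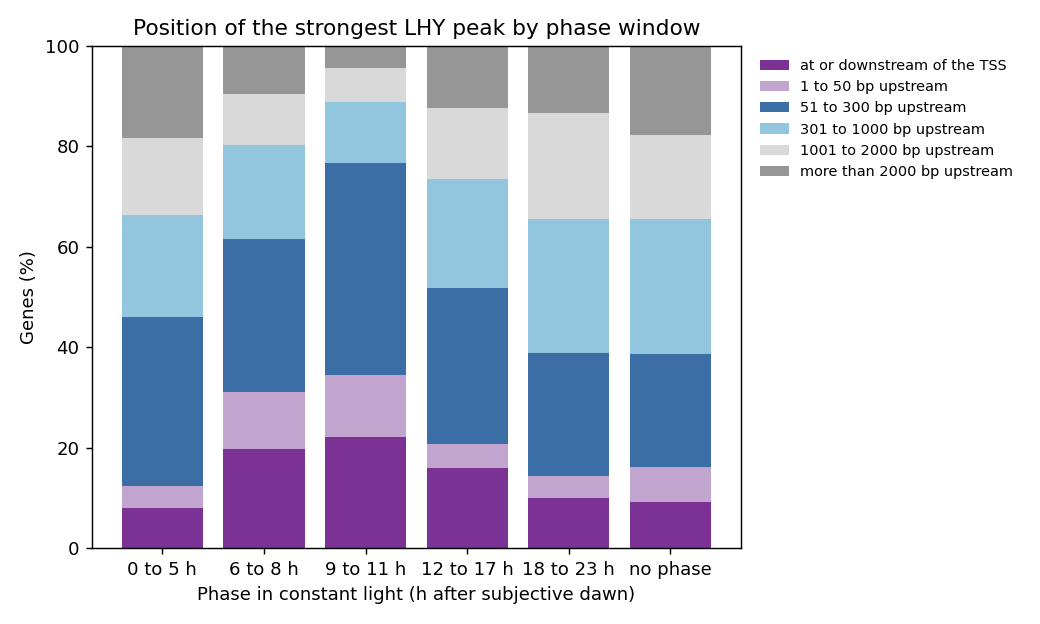
Percentage of bound genes (vertical) with the strongest peak in each of 6 position ranges, by phase window and for genes without a phase (horizontal). In the 12 to 17 h bar, 16.04% of genes have the peak at or downstream of the TSS and 31.1% have it 51 to 300 bp upstream, against 22.2% and 42.2% at 9 to 11 h.

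More than 3000 bp upstream lay the strongest peak of 8 early-night genes (7.55%), against 8.93% of all bound genes and 7.21% of those with a phase. Besides the transport genes HA1, AT5G17700, GTR1 and PUP1, these were DGK7, AT4G37380, AT3G23300 (−5228 bp) and FLP. Except for AT4G37380, their values were between 5.23 and 12.2.

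At 4 of the early-night genes (3.77%) the peaks were listed a second time, under a neighbour, a share close to the 3.37% of all bound genes (54 of 1602). For 3 pairs of adjacent genes the same 2 values stood under both genes, and the distances of a peak to the start of each gene added up to the same number for both peaks, as they do when the genes face away from each other across a shared region. SMZ and TON1A, a cytoskeleton gene without a listed phase, started 4987 bp apart by this sum. The peak of 137 lay at −1664 bp from SMZ and −3323 bp from TON1A, and the peak of 21.7 lay at −2584 and −2403 bp.

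AT4G37380, a gene of the tetratricopeptide-like superfamily with a phase of 13 h, shared its peaks with BRU6, a gene of auxin conjugation without a listed phase. The starts were 5720 bp apart. The peak of 63.2 lay at −5592 bp from AT4G37380 but −128 bp from BRU6, and that of 17.3 lay at −2831 and −2889 bp. The high value of AT4G37380 thus belongs to a peak in the promoter window of its neighbour.

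DGK7 (AT4G30340), a diacylglycerol kinase gene with a phase of 15 h, and AT4G30350, known as SMXL2 and related to karrikin and strigolactone signalling, with a phase of 13 h, were both early-night genes. Their starts were 6674 bp apart. The peak of 9.11 lay at −866 bp from AT4G30350 and −5808 bp from DGK7, and the peak of 6.001 lay at −471 bp from DGK7 and −6203 bp from AT4G30350. Each gene thus had its nearer peak inside its own promoter window.

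**Figure D5:**
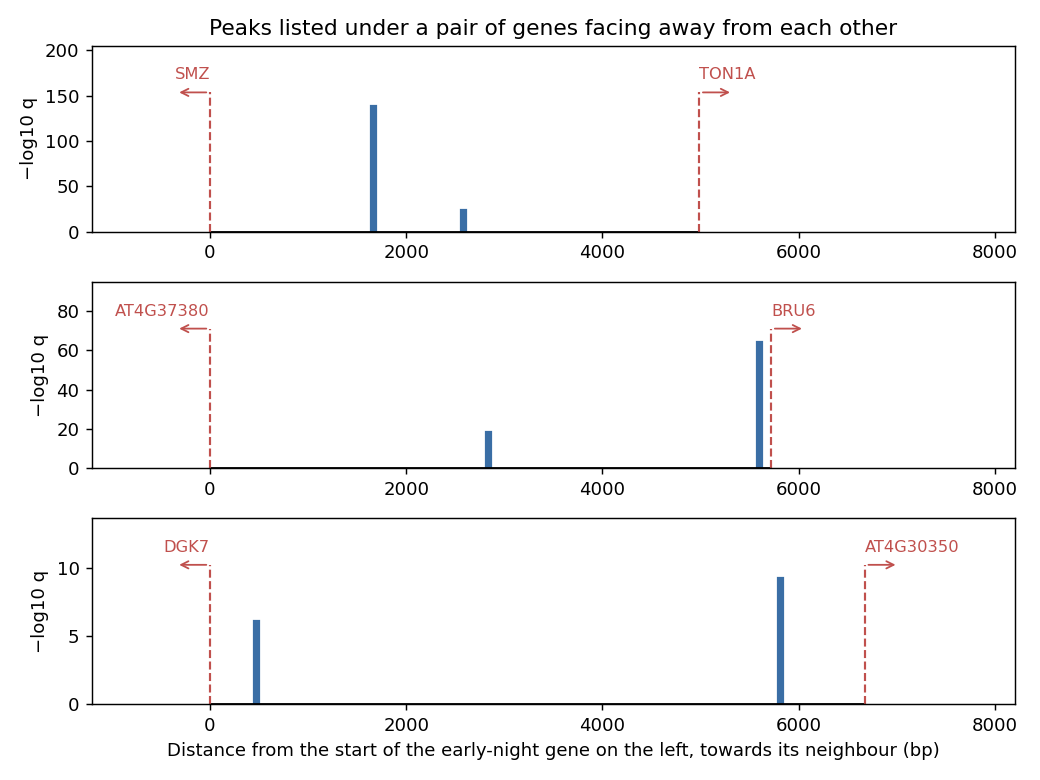
Peaks (blue bars, height in −log10 q) between the starts of 3 pairs of genes that face away from each other (red dashed lines, arrows give the direction of the gene), by distance in bp from the start of the gene on the left. The peak of 63.2 stands at −128 bp from BRU6, and the peak of 137 stands nearer to SMZ (−1664 bp) than to TON1A (−3323 bp).

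Of the 8 genes with 2 peaks (7.55%, against 9.11% of all bound genes and 12.1% of those with a phase), 3 belonged to transcription and chromatin: SMZ, RVE2 and GTE7. The others were AT4G37380, ACA8, AT1G49230, DGK7 and AT4G30350. The 3 regulators are 16.7% of the 18 genes of their class (interval 3.58 to 41.4), and this interval contains both backgrounds. At AT4G37380 and DGK7 the stronger peak was the more distant of the pair.

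The functional descriptions in the deposited table allow a count of shared terms that the phase did not use. The chloroplast was named as a location for 19 early-night genes (17.9%, interval 11.2 to 26.6), close to the 18.5% of other bound genes with a phase and above the 12.8% of all bound genes. CRR6, FAD8, NIR1, MTO2, PGM and TOC132 were among them. Response to cold was named for 5 genes (4.72%, interval 1.55 to 10.7), AOX1A, GER3, MTO3, PGM and THI1, against 2.58% of other genes with a phase and 1.44% of all bound genes. Response to salt stress was named for 5 (4.72%), AVP1, GPX6, NIR1, NRT1.7 and AT3G60750, against 2.58% and 1.81%. Of these comparison values, the 1.44% for cold lies below the interval of the early-night genes, and the others lie inside it. Many further terms were counted, and for those every comparison value lay inside the interval. The cold value was thus picked from many comparisons and rests on 5 genes. For cold, the 2.58% of other genes with a phase lies inside the interval. Some descriptions replace the terms with their number, so these counts are lower limits; for 3 early-night genes, ELF4, FER3 and ROC4, the processes were given that way.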

How the data were processed

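ChIP DNA from 1 pooled LHY library and 1 input library was analysed; no depth, coordinate or read was used here. TAIR9 was the build, and the tools were Bowtie and MACS2 2.0.10.09132012, per the submitters' processing notes; no Bowtie version or peak threshold is given in the sources used here. The authors' deposited table gives, per the file headers, −log10 q (in another header line, −log10 of the p-value), positions from the TSS, the pairing of a peak with the closest gene facing away, and phases from the Diurnal database (cut-off 0.8).

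Genes with a phase of 12 to 17 h were taken (106, all matched to TAIR10.1 loci, which gave symbols, biotypes and gene order only). The strongest peak stood for a gene. Equal values under genes at most 5 places apart counted as shared peaks. Role classes were assigned by hand from the descriptions. Named genes were those with strong or several peaks, clock list members, up to 8 per class, the 5 weakest and those with a peak over 3000 bp from the TSS; beyond these, genes were named to complete a class, after their values were seen. The members and lists were chosen with earlier results of these data known. A planned motif search was not run, as no promoter sequence was used here. Summaries were tested on simulated data. Shares have exact Clopper-Pearson intervals. Python 3.11.15, NumPy 2.4.6, pandas 2.3.3, SciPy 1.17.1 and Matplotlib 3.10.9 were used.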

Additional observations from a re-analysis of the deposited data

How the results depend on the processing

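Of 17 alternative values, 14 lay inside the interval of the value reported; they covered other phase windows and promoter widths, the peak nearest to the TSS, the removal of genes with shared peaks and, for the share of strong peaks, protein-coding loci. For 3 further values the restriction to protein-coding loci could change nothing, since every early-night gene is protein-coding. The median −log10 q stayed between 10.3 and 11.7, and the share of strong peaks between 27.4% and 33.3%. The share in the promoter window was 56.6% with 500 bp upstream and 89.6% with 3000 bp; the window's width moves it by construction. The median position was −530 bp for a phase of 13 to 16 h, a setting that leaves out the 12 h genes, whose own median was −104.5 bp. No paired analysis was possible because there is 1 ChIP library and 1 input library.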

Other observations

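Values of −log10 q recur in the table. The 1762 pairs of a gene and a peak hold 935 different values, and the strongest value of 58 of the 106 early-night genes occurs more than once. The same count was not made for all bound genes, so recurrence cannot be called particular to the early-night genes. LGO, for example, has the same 21.7 as the second peak of SMZ, although the genes are not neighbours. An equal value alone therefore does not identify a shared peak; for the 3 pairs with SMZ, AT4G37380 and DGK7, the equal sums of distances were found in addition.

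Besides DGK7 and AT4G30350, 2 pairs of early-night genes lie at most 5 places apart in the annotation. PDC2 and the AT-hook gene AT5G54930, 3 places apart, both have a phase of 13 h, with separate peaks of 69.5 at −99 bp and 6.001 at −91 bp. AT4G37380 and CYP81D5, 5 places apart, have phases of 13 and 17 h.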
